A study of Mus musculus with 2 samples.

Results

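The genes described here were *Dlx1*, *Dlx2*, *Dlx5*, *Dlx6*, *Dlx6os1*, *Sp9*, *Lhx6* and *Maf*, a set of regulators of the GABAergic lineage, the neurons that use GABA as an inhibitory transmitter. They were taken by symbol from the gene list of the libraries, and all 8 were found among its 32285 genes. The cells came from 2 libraries of WT mouse brain hemispheres at embryonic day 14.5, dissected as dorsal telencephalon, and were profiled by 10x droplet RNA sequencing, in which each captured RNA molecule carries a unique molecular identifier (UMI). All animals were WT with no treatment, so the libraries, replicates 1 and 3, form 1 group. Their titles also carry the code EoMltt3, which the labels do not explain, and nothing says whether a library held 1 embryo or several, so p-values measure only the spread between these samples. Replicate 1 held 64182006 UMIs in 6163 barcodes and replicate 3 held 93295807 in 8870, of which 5149 and 6854 cells were kept after filters on UMIs, mitochondrial UMIs and doublets. The libraries shared 23 barcode sequences, 15 of them among kept cells.

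Cells were clustered without the 8 genes and named from markers that did not include them. GABAergic-like cells, called from *Gad1* and *Gad2*, which make GABA, and from GABA transporters, were 754 cells (14.6%) in replicate 1 and 247 (3.60%) in replicate 3. They were compared with projection neuron-like cells (2830 and 3297), intermediate progenitor (IPC)-like cells (593 and 1064) and radial glial cell (RGC)-like cells (683 and 1564), the glutamatergic lineage of the cortex. *Gad1* was at 299 and 339 CPM (UMIs of a gene per 1000000 UMIs summed over the cells of a class in a library) in GABAergic-like cells and in projection neuron-like cells at 1.06 and 0.437 CPM. Within the GABAergic-like cells, 338 and 207 were MGE-like, 53 and 17 were CGE-like, and 131 in replicate 1 and 0 in replicate 3 were LGE-like, after the medial, caudal and lateral ganglionic eminences of the basal telencephalon. The MGE-like name rested on other markers than *Nkx2-1*, the patterning factor of the MGE, which had 5 and 2 UMIs there. The remaining 232 and 23 GABAergic-like cells kept no subtype name.

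*Dlx* genes encode homeobox transcription factors that occur as neighbouring, oppositely oriented pairs sharing enhancers, and in the forebrain they specify GABAergic neurons of the ganglionic eminences and help their migration. *Dlx1* and *Dlx2* act first in progenitors and drive *Dlx5* and *Dlx6*, while *Dlx6os1*, also called Evf2, is a long noncoding RNA that runs antisense across *Dlx6*. *Sp9* encodes a zinc-finger factor of ganglionic eminence and striatal neurons, *Lhx6* a LIM-homeobox factor of the MGE lineage that gives rise to somatostatin and parvalbumin interneurons, and *Maf* a basic leucine zipper factor of the same lineage that is also used by macrophages.

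In build mm10, *Dlx1* (chr2:71528113-71533981, plus strand) and *Dlx2* (chr2:71543408-71546754, minus strand) lay 9426 bases apart, and *Sp9* (chr2:73271926-73275771, plus strand) followed 1.73 Mb beyond *Dlx2*. *Lhx6* was on the same chromosome (chr2:36081950-36105992, minus strand). *Dlx6* (chr6:6863334-6867970, plus strand) and *Dlx5* (chr6:6877801-6882068, minus strand) were 9830 bases apart, and *Maf* was at chr8:115703253-115706894 on the minus strand. *Dlx6os1* (chr6:6820543-6871627, minus strand) contains *Dlx6* whole, and the antisense gene *Dlx1as* overlaps *Dlx1* by 3344 bases. The strand setting of the counting is not given in the sources used here, so the values of these overlapping partners are uncertain where they overlap.

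RefSeq start-site windows on GRCm38.p6 matched 5 of the 8 genes, with no entry for *Dlx5*, *Dlx6* or *Maf*. The 250 bases before the start of *Dlx2* (chr2:71546755-71547004, minus strand), *Sp9* (chr2:73271676-73271925, plus strand) and *Dlx6os1* (chr6:6869534-6869783, minus strand, a start inside the gene's longer span) are shown 5′ to 3′ on the gene's own strand. They were chosen because *Dlx2* and *Sp9* were not detected in a group of LGE-like cells that kept *Dlx6os1* (given with the subclusters further on). Capitals mark TAATTA, a core letter string of homeobox factor binding, and GGGCGG on either strand, the string bound by Sp zinc-finger factors.
Dlx2: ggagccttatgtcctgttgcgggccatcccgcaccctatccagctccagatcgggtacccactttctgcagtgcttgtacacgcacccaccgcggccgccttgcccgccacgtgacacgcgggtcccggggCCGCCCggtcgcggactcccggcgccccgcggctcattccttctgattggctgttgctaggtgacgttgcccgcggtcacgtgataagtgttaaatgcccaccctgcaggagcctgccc
Sp9: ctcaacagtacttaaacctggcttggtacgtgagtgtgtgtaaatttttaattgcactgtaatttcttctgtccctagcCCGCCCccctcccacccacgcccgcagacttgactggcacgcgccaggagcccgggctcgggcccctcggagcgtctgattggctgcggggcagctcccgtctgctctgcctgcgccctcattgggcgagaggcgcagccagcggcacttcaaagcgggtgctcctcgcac
Dlx6os1: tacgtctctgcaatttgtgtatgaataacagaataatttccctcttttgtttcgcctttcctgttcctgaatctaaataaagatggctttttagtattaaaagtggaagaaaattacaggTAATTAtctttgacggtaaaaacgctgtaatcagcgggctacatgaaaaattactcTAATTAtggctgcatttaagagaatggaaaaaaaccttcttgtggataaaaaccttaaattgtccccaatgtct
The *Dlx2* and *Sp9* windows were rich in G and C, at 66.4% and 62.4%, and each held 1 GGGCGG string, on the opposite strand, and no TAATTA. The *Dlx6os1* window had a G and C content of 33.2% and held TAATTA 2 times. Of 32851 windows of this length, 4.84% held TAATTA and 32.7% held GGGCGG, and their median G and C content was 52.4%, so a match to the second string was common.

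All 8 genes were higher in GABAergic-like cells than in projection neuron-like, IPC-like and RGC-like cells of the same library, in both libraries. *Dlx1* stood at 244 and 226 CPM in GABAergic-like cells of replicates 1 and 3 (1052 and 288 UMIs), against 2.36 and 0.765 in projection neuron-like cells. *Dlx2*, its partner, stood at 107 and 122 CPM against 0.848 and 0.355. For both genes the GABAergic-like values of the 2 libraries lay close together, while the projection neuron-like values were lower in replicate 3. *Dlx5* was at 107 and 88.8 CPM against 0.817 and 0.191, and *Dlx6* at 37.1 and 38.5 CPM against 0.394 and 0.0820, the latter from 13 and 3 UMIs. The noncoding *Dlx6os1* was at 1027 and 962 CPM against 2.97 and 0.901. All 5 *Dlx* genes were thus at like levels in the GABAergic-like cells of both libraries and lower in the projection neurons of replicate 3 than in those of replicate 1. The share of GABAergic-like cells was also higher in replicate 1 (14.6% against 3.60%), and its part in this difference was not tested.

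*Sp9* was at 158 and 131 CPM in GABAergic-like cells and in projection neuron-like cells at 1.12 and 0.410 CPM. *Lhx6* was at 111 and 257 CPM against 0.878 and 0.628, and *Maf* at 256 and 420 CPM against 1.94 and 1.17. *Lhx6* and *Maf* were thus higher in the GABAergic-like cells of replicate 3, where MGE-like cells were 207 of 247, than in those of replicate 1, where they were 338 of 754 and LGE-like cells were 131. Counts summed over a class cannot tell fewer expressing cells from less RNA per cell.

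**Figure D1:**
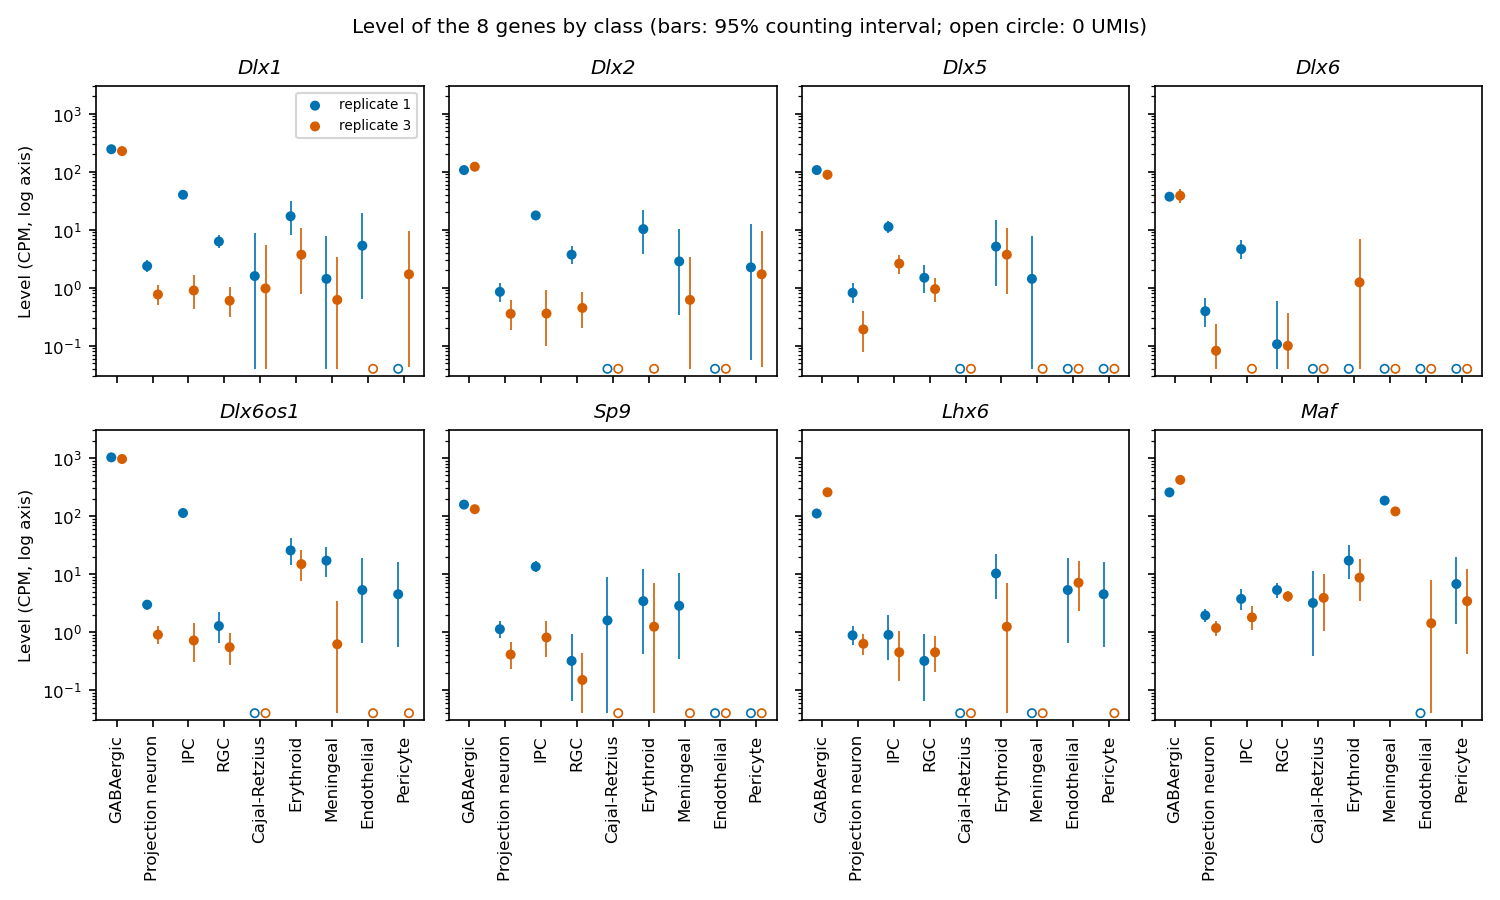
Level of each of the 8 genes (y axis, CPM of summed UMIs, log scale) in 9 cell classes (x axis), with 1 point per replicate, bars for the 95% counting interval and an open circle for 0 UMIs. GABAergic-like cells hold the highest level of each gene among these classes, *Maf* in meningeal-like cells (185 and 120 CPM) coming nearest, and IPC-like cells of replicate 1 lie above those of replicate 3 for the *Dlx* genes and *Sp9*.

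Among the glutamatergic classes, IPC-like cells of replicate 1 held the most *Dlx* RNA, and there the libraries differed. *Dlx1* was at 40.0 CPM (268 UMIs) in IPC-like cells of replicate 1 and at 0.896 CPM (10 UMIs) in those of replicate 3, and *Dlx6os1* at 113 CPM (756 UMIs) and 0.717 CPM (8 UMIs). *Dlx2* was at 17.6 and 0.359 CPM, *Dlx5* at 11.2 and 2.60, *Dlx6* at 4.63 and 0, and *Sp9* at 13.4 and 0.807. Replicate 1 was higher for each of these genes, whereas *Lhx6* (0.896 and 0.448 CPM, from 6 and 5 UMIs) and *Maf* (3.73 and 1.79 CPM) stayed low in both. In RGC-like cells *Dlx1* was at 6.26 and 0.598 CPM, *Dlx2* at 3.71 and 0.448, *Dlx6os1* at 1.27 and 0.548, and *Sp9* at 0.318 and 0.149. *Dlx5* in RGC-like cells was at 1.49 and 0.947 CPM, *Dlx6* at 0.106 and 0.0996, and *Lhx6* at 0.318 and 0.448, each from 19 UMIs or fewer. *Maf* in RGC-like cells was at 5.30 and 4.14 CPM.

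The IPC-like counts of replicate 1 came largely from few cells. Of its 593 IPC-like cells, 37 (6.24%) had 2 or more UMIs of *Gad1*, *Gad2* and *Slc32a1* together, the last encoding the vesicular GABA transporter, against 6 of 1064 (0.564%) in replicate 3. Those 37 cells, 33 of them in a cluster led by cell cycle genes, held *Dlx1* at 482 CPM (188 UMIs), *Dlx2* at 200, *Dlx5* at 123, *Dlx6os1* at 1612 and *Sp9* at 157, with *Lhx6* at 2.57 and *Maf* at 10.3. They also held *Gsx2*, a progenitor factor that acts before *Dlx* genes in the ganglionic eminences, at 30.8 CPM, and *Eomes*, the IPC marker, at 185 CPM, against 705 CPM in the other IPC-like cells of the library. Without them, IPC-like cells of replicate 1 had *Dlx1* at 12.7 CPM, *Dlx2* at 6.34, *Dlx5* at 4.28, *Dlx6* at 1.27, *Dlx6os1* at 20.3 and *Sp9* at 4.60. The *Dlx1*, *Dlx2* and *Dlx6os1* values left were below those of the erythroid-like cells of that library, taken as background. By level they cannot be told from it.

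Outside the neural lineage, erythroid-like cells, taken to lack these RNAs, gave the background. Of them 55 and 57 cells formed a cluster whose leading genes also included the keratin genes *Krt5*, *Krt14* and *Krt15*. The class may thus hold more than red blood cells, and its use as background was not tested. Erythroid-like cells held *Dlx1* at 17.1 and 3.71 CPM (10 and 3 UMIs) and *Dlx6os1* at 25.6 and 14.8 CPM (15 and 12 UMIs). *Lhx6* was there at 10.2 and 1.24 CPM and *Maf* at 17.1 and 8.66 CPM. These values were above those of projection neuron-like and RGC-like cells in the same library. By level those classes cannot be told from background, and no order between them is read. Depth differed, at a median of 4101 and 3446 UMIs in erythroid-like and 12977 and 11944.5 in RGC-like cells. The makeup of the *Dlx* UMIs differed too, with *Dlx6os1* at 9.92% and 20.8% in RGC-like and 44.1% and 63.2% in erythroid-like cells. The cause was not tested. *Maf* was high outside the neural lineage as well, at 990 CPM in microglia-like cells of replicate 3 (155 UMIs in 22 cells) and at 185 and 120 CPM in meningeal-like cells (130 and 195 UMIs). The 1 microglia-like cell of replicate 1 had 6 *Maf* UMIs. *Lhx6* had a UMI in 5 of 43 endothelial-like cells of replicate 3 (11.6%, 95% Wilson interval 5.07 to 24.5), against 1 of 151 erythroid-like cells (0.662%), and in 0 of the 43 after thinning to 2000 UMIs. A cluster without a class name, led by *Ttr*, a choroid plexus gene, and *Rspo2*, had 10 and 177 *Maf* UMIs.

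The levels were compared with edgeR's quasi-likelihood test on sums per class and library, with Benjamini-Hochberg adjustment over 15286 genes. Since the classes were built from other genes of the same cells, the p-values describe these classes and are not a test of whether the classes exist. Against projection neuron-like cells, 8 of 8 genes were higher, where 15.3% of all genes tested were higher and 20.5% lower at an adjusted p under 0.05. In edgeR, the log2 fold change was 8.75 ± 1.71 (SE) for *Dlx6os1*, 7.49 ± 0.46 for *Lhx6* and 7.46 ± 0.38 for *Maf*, at adjusted p of 0.00648, 6.26e-05 and 3.48e-05. Each SE given for edgeR is the absolute log2 fold change divided by the square root of the F statistic, as edgeR itself reports none. The other log2 fold changes were 6.96 for *Dlx1*, 7.12 for *Dlx2*, 7.14 for *Dlx5*, 6.55 for *Dlx6* and 7.20 for *Sp9*, with edgeR adjusted p from 0.000289 to 0.00626. The median over the 8 genes was 7.17 and that over all genes tested was -0.04. By size of the fold change the 8 genes ranked from 7 (*Dlx6os1*) to 34 (*Dlx6*) of 15286. These sizes and ranks rest on few UMIs in the lower class, such as 13 and 3 of *Dlx6* in projection neuron-like cells. The filter on low counts also keeps a gene that passes in 1 class alone, which puts such genes high by fold. The same holds against RGC-like cells, so the ranks are description only. Of the genes called, 42.8% were higher with TMM scaling, 61.7% with library sizes only and 50.3% with DESeq2, and 8 of 8 genes stayed higher under each.

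Against IPC-like cells, where 25.8% of genes were higher and 27.2% lower, 8 of 8 were again higher, with *Lhx6* and *Maf* apart from the rest. *Lhx6* had a log2 fold change of 7.84 (SE 0.54) and *Maf* of 6.91 (SE 0.40), with edgeR adjusted p of 3.47e-05 and 1.62e-05. *Sp9* (4.49), *Dlx6os1* (4.15), *Dlx6* (4.15), *Dlx5* (3.91), *Dlx2* (3.79) and *Dlx1* (3.61) had smaller fold changes, with edgeR adjusted p from 0.000842 to 0.0348, and with DESeq2 the calls of *Dlx1* (adjusted p = 0.0714) and *Dlx2* (adjusted p = 0.0526) were lost. The ratio of GABAergic-like to IPC-like CPM of *Dlx1* was 6.10 in replicate 1 (95% counting interval 5.33 to 7.0) and 253 in replicate 3 (135 to 532), and that of *Dlx6os1* was 9.10 and 1342. In a setting added after seeing the data, cells with 2 or more *Gad1*, *Gad2* and *Slc32a1* UMIs were left out of the glutamatergic classes. The log2 fold changes were then 5.30 for *Dlx1*, 5.29 for *Dlx2*, 4.84 for *Dlx5*, 5.91 for *Dlx6*, 6.71 for *Dlx6os1* and 5.89 for *Sp9*. *Lhx6* and *Maf* then had 7.94 and 7.06. The cells left out had been seen to hold much of the *Dlx* RNA of IPC-like cells. Larger values for the *Dlx* genes thus followed from the choice and are no check.

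Against RGC-like cells, where 31.3% of genes were higher and 30.7% lower, 8 of 8 were higher and *Dlx6os1* had the 3rd highest fold change of 15286 genes. Its log2 fold change was 10.07 (SE 1.92, edgeR adjusted p = 0.00242). *Sp9* had 8.75, *Lhx6* 8.38, *Dlx6* 7.31, *Dlx1* 6.38, *Dlx5* 6.31, *Maf* 6.17 and *Dlx2* 6.02, at edgeR adjusted p from 7.12e-06 to 0.00445. In RGC-like cells of replicates 1 and 3, *Dlx6os1* had 12 and 11 UMIs, *Sp9* 3 and 3, *Lhx6* 3 and 9 and *Dlx6* 1 and 2. Sizes from so few UMIs, and the order and rank they give, are description only. In each of the 3 contrasts the values of both libraries lay above both values of the other class for all 8 genes. The share of all genes tested that did so was not counted, so this is not read as particular to the 8. The 3 contrasts share the GABAergic-like sums.

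**Figure D2:**
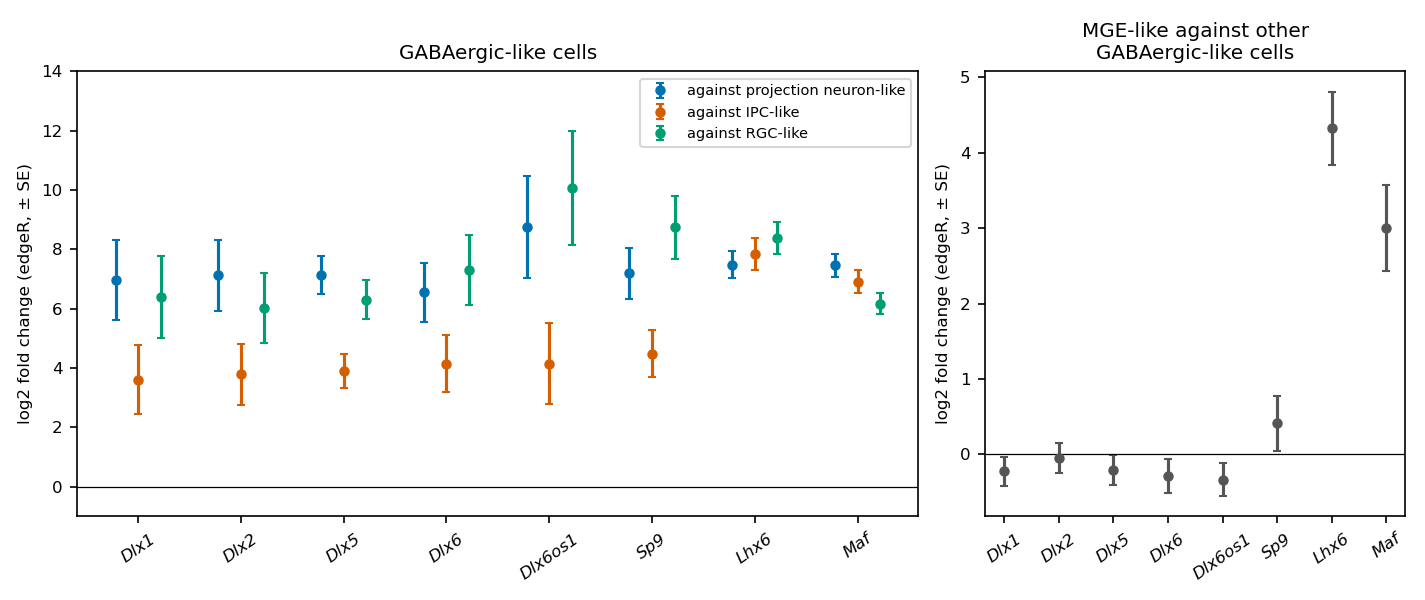
Log2 fold change from edgeR with an SE derived from its F statistic (y axis) for each of the 8 genes (x axis), at left for GABAergic-like cells against projection neuron-like, IPC-like and RGC-like cells, and at right for MGE-like against the other GABAergic-like cells. At left all 24 points lie above 0 and those against IPC-like cells are the smallest for 6 of the genes, and at right *Lhx6* (4.33) and *Maf* (3.0) lie above 0 while the *Dlx* genes sit between -0.34 and -0.05.

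Within the GABAergic-like cells, *Lhx6* and *Maf* separated the subtypes. RNA of each *Dlx* gene was present in all 3, at levels that differed for some of these genes. *Lhx6* was at 257 and 307 CPM in MGE-like cells (445 and 300 UMIs), at 0 UMIs in CGE-like cells of both libraries, and at 1 UMI (1.35 CPM) in LGE-like cells of replicate 1. With 3 counts per library as the limit that 0 UMIs allow, 11.3 and 38.5 CPM, it was at least 22.8-fold higher in MGE-like than in CGE-like cells in replicate 1 and at least 7.98-fold higher in replicate 3. *Maf* was at 576 and 498 CPM in MGE-like cells, 135 and 116 CPM in CGE-like cells and 10.8 CPM in LGE-like cells, so that its order was the same in both libraries as far as the subtypes were present. The log2 difference of *Maf* between MGE-like and CGE-like cells was 2.10 ± 0.08 (SD, n = 2). CGE-like cells numbered 17 in replicate 3, under the minimum of 20 cells for a sum to be tested, and LGE-like cells 0, so these differences carry no test.

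*Dlx6os1* and *Dlx1* took the opposite order between MGE-like and CGE-like cells. *Dlx6os1* was at 923 and 979 CPM in MGE-like cells and at 2039 and 1925 CPM in CGE-like cells, and *Dlx1* at 237 and 231 against 376 and 372 CPM. For both genes the 2 libraries nearly coincided within each subtype and the subtypes did not overlap. The share of all genes that did so was not counted, so this is not read as particular to them. CGE-like cells of replicate 3 numbered 17, with 29 *Dlx1* UMIs. *Dlx2* was at 106 and 130 CPM against 154 and 154, *Dlx5* at 110 and 90.1 against 132 and 141, and *Dlx6* at 34.6 and 41.0 against 22.6 and 89.8, the last pair from 6 and 7 UMIs. The log2 differences, MGE-like less CGE-like, were -1.03 ± 0.19 for *Dlx6os1*, -0.64 ± 0.06 for *Dlx1*, -0.36 ± 0.27 for *Dlx2*, -0.42 ± 0.20 for *Dlx5* and -0.23 ± 1.10 for *Dlx6* (SD, n = 2), and for *Dlx6* the libraries had opposite signs. *Sp9* went the other way, at 184 and 156 CPM in MGE-like and 82.8 and 38.5 CPM in CGE-like cells (log2 difference 1.56 ± 0.64), the last value from 3 UMIs.

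LGE-like cells, seen in replicate 1 alone, had the lowest *Dlx1* and *Dlx2* of the named subtypes, at 109 CPM (81 UMIs) and 28.3 CPM (21 UMIs). *Dlx6os1* was at 500 CPM and *Dlx5* at 97.0 CPM there, *Dlx6* at 47.2 CPM and *Sp9* at 179 CPM. *Sp9* and *Dlx5* were thus close to the MGE-like levels of the same library, whereas *Dlx2* was 1.87 lower on the log2 scale. These values depended on which cells took the LGE-like name. With doublets kept, where a subcluster led by *Zfp385b*, *Grm8* and *Synpr* was also named LGE-like, the log2 difference, MGE-like less LGE-like, was 0.38 for *Dlx2* and -0.12 for *Dlx1*, against 1.16 for *Dlx1* in the cells described here, and with coarser clusters it was 0.77 and 0.19.

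Where another treatment of the cells gave CGE-like cells in number, a test of MGE-like against CGE-like cells could be made. With no filter on cells (78 and 21 CGE-like cells, 221 of 8458 genes called in edgeR), *Lhx6* was higher in MGE-like cells by 5.26 (adjusted p = 0.00115) and *Maf* by 1.87 (adjusted p = 0.00168) on the log2 scale, and *Dlx6os1* had -1.21 (adjusted p = 0.0153). With finer clusters (114 and 20 cells, 355 of 8922 genes called in edgeR), *Lhx6* had 4.34 (adjusted p = 0.000418), *Maf* 2.80 (adjusted p = 0.00397) and *Sp9* 2.08 (adjusted p = 0.00477), while *Dlx6os1* had -0.29 (adjusted p = 0.826). The difference of *Lhx6* and *Maf* passed in both, and that of *Dlx6os1* and of *Sp9* each in 1 of them. With finer clusters *Dlx1* (0.15), *Dlx2* (0.67), *Dlx5* (0.54) and *Dlx6* (0.83) turned to higher values in MGE-like cells, at edgeR adjusted p from 0.463 to 0.923, so the order of these 4 genes between the subtypes depended on the clustering.

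A comparison of MGE-like cells with the other GABAergic-like cells was added after seeing the data, the others being the CGE-like and LGE-like cells and the unnamed subclusters 3 and 6 (350 and 27 cells), with subcluster 5 in neither. Here 1.46% of 9889 genes were higher and 2.39% lower at an edgeR adjusted p under 0.05, and 2 of the 8 genes were higher and 0 lower. *Lhx6* was at 8.46 and 43.0 CPM in the other cells (17 and 8 UMIs), a log2 fold change of 4.33 (SE 0.49, edgeR adjusted p = 0.0047). *Maf* was at 34.8 and 156 CPM in the other cells, a log2 fold change of 3.0 (SE 0.57, edgeR adjusted p = 0.0280). The ratio was larger in replicate 1 for both, at 30.4 (95% counting interval 18.8 to 52.6) and 7.14 (3.58 to 16.7) for *Lhx6* and 16.6 (13.0 to 21.4) and 3.19 (2.19 to 4.82) for *Maf*. The *Dlx* genes had log2 fold changes of -0.23 (*Dlx1*), -0.05 (*Dlx2*), -0.21 (*Dlx5*), -0.29 (*Dlx6*) and -0.34 (*Dlx6os1*) and *Sp9* of 0.41, with edgeR adjusted p from 0.520 to 0.945. Neither call held without a filter on cells (edgeR adjusted p = 0.0534 for *Lhx6* and 0.0825 for *Maf*) or with a stricter one (0.0539 and 0.0587), and that of *Maf* did not hold with DESeq2 (adjusted p = 0.204).

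The 10 GABAergic-like subclusters showed further differences, given as levels since they were made from these cells. The MGE-like subclusters 0, 1 and 2 all held *Lhx6* and *Maf*, but *Sp9* ran from 282 and 264 CPM in subcluster 0 through 165 and 166 in subcluster 1 to 70.7 and 57.7 in subcluster 2, the same order in both libraries. *Dlx1* was lowest of these in subcluster 2, at 129 and 143 CPM. Subcluster 3 of replicate 1 (92 cells), led by *Ccnd2*, *Hmgb2* and *Cenpf*, genes of dividing cells, held *Dlx1* at 470 CPM, *Dlx2* at 261, *Dlx5* at 197 and *Dlx6os1* at 2344, with *Lhx6* at 26.4 and *Maf* at 33.5. It had the highest *Dlx2* and *Dlx5* of the subclusters in that library. Subcluster 6 of replicate 1 (74 cells), led by *Synpr*, *Zic1* and *Pbx3*, held *Dlx1* at 396 and *Dlx6os1* at 1245 CPM with 1 *Lhx6* UMI.

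The LGE-like cells split into a pair of subclusters that differed in the *Dlx1* and *Dlx2* pair and in *Sp9*. Subcluster 4 (79 cells), whose leading genes included *Drd2* and *Adora2a*, receptors of striatal neurons of the indirect pathway, held 78 *Dlx1*, 21 *Dlx2* and 133 *Sp9* UMIs (176, 47.4 and 300 CPM). Subcluster 8 (52 cells), whose leading genes included *Ebf1* and *Isl1*, factors of direct pathway striatal neurons, held 3 *Dlx1*, 0 *Dlx2* and 0 *Sp9* UMIs. The other *Dlx* pair was present in both. *Dlx5* was at 111 and 77.0 CPM (49 and 23 UMIs), *Dlx6* at 42.9 and 53.5 CPM (19 and 16 UMIs), and *Dlx6os1* at 629 and 308 CPM (279 and 92 UMIs) in subclusters 4 and 8. These cells come from replicate 1 alone, so this difference has no replicate. In 52 cells, 0 UMIs does not show that an RNA was absent.

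Subcluster 5 held *Dlx1* at 38.5 and *Dlx6os1* at 80.4 CPM in the 66 cells of replicate 1, and at 119 and 494 CPM in the 13 cells of replicate 3. It also held *Neurod6*, a projection neuron marker, at 168 and 339 CPM, beside *Gad2* at 171 and 448 CPM. Leaving it out changed no call of the 8 genes against the glutamatergic classes.

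**Figure D3:**
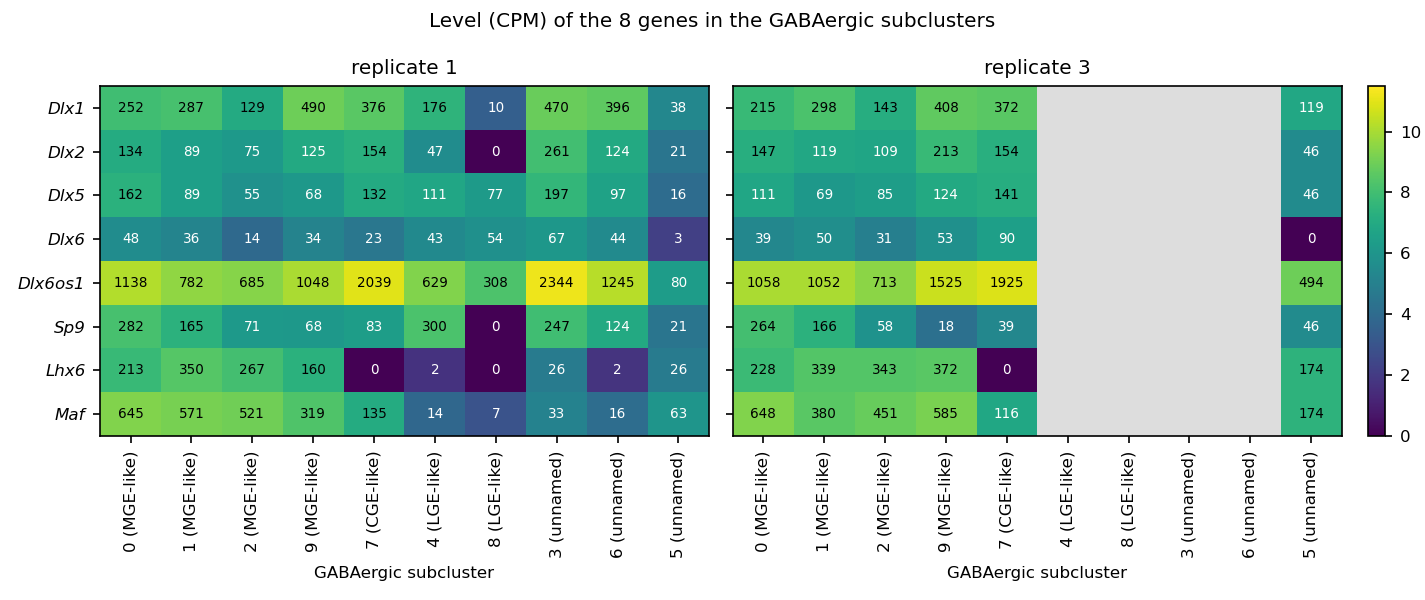
Level of each of the 8 genes (y axis, CPM printed in each square, color as log2(CPM + 1)) in the 10 GABAergic-like subclusters (x axis), at left in replicate 1 and at right in replicate 3, with subclusters of fewer than 10 cells in grey. *Lhx6* and *Maf* are high in subclusters 0, 1, 2 and 9, and in subcluster 8 *Dlx2* and *Sp9* are at 0 while *Dlx6os1* is at 308 CPM.

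The share that each *Dlx* gene took of the UMIs of the 5 *Dlx* genes was compared between classes, since levels of different genes are not on 1 scale in these 3′ counts. In GABAergic-like cells the shares of both libraries were alike, with *Dlx6os1* at 67.5% of 6561 UMIs (95% Wilson interval 66.4 to 68.6) and 66.9% of 1829 (64.7 to 69.04), and *Dlx1* at 16.03% and 15.7%. In projection neuron-like cells *Dlx6os1* made up 40.2% of 244 UMIs (34.2 to 46.4) and 39.3% of 84 (29.5 to 49.98), and *Dlx1* 32.0% and 33.3%. The few *Dlx* UMIs of projection neurons thus held a lower share of *Dlx6os1* than GABAergic-like cells in both libraries. In erythroid-like cells *Dlx6os1* made up 44.1% of 34 UMIs in replicate 1 (28.9 to 60.5) and 63.2% of 19 in replicate 3 (41.0 to 80.9). In RGC-like cells *Dlx1* and *Dlx2* made up 48.8% and 28.9% of 121 UMIs in replicate 1, and *Dlx6os1* 9.92% (5.76 to 16.5). In replicate 3 they made up 22.6%, 17.0% and 20.8% of 53 UMIs there. *Dlx5* took 35.8% of the UMIs of RGC-like cells and 56.9% of the 51 UMIs of IPC-like cells (43.3 to 69.5) in replicate 3, where the counts are few. CGE-like cells had the highest share of *Dlx6os1*, 74.9% (71.6 to 77.9) and 71.8% (65.3 to 77.4).

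**Figure D4:**
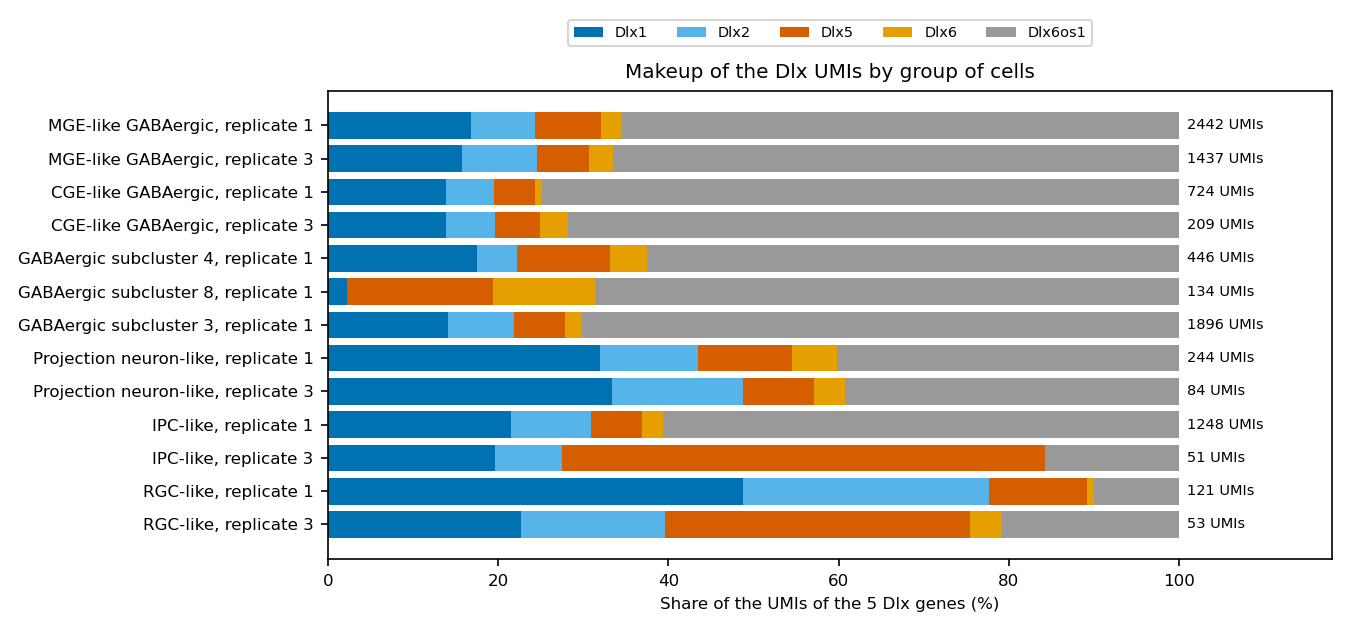
Makeup of the UMIs of the 5 *Dlx* genes (x axis, percent, stacked by gene) in 13 groups of cells (y axis), with the UMI total at the right of each bar. *Dlx6os1* fills 65.4% and 66.5% of the bars of MGE-like cells and 9.92% of that of RGC-like cells in replicate 1, and the *Dlx1* and *Dlx2* segments almost vanish in subcluster 8.

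Shares of cells with a UMI were compared after each cell was thinned to 2000 UMIs, since GABAergic-like cells were shallower (median 4729 and 4057 UMIs) than projection neuron-like cells (11113.5 and 10753). Thinning left out 33 and 24 GABAergic-like cells. *Dlx6os1* was then seen in 69.6% and 80.7% of GABAergic-like cells (82.6% and 89.9% unthinned), *Dlx1* in 37.0% and 32.3% (58.0% and 59.5% unthinned), and *Maf* in 34.0% and 48.9% (44.96% and 67.6% unthinned). *Lhx6* was seen in 19.3% and 37.7%, *Sp9* in 24.7% and 20.2%, *Dlx2* in 19.0% and 23.8%, *Dlx5* in 18.3% and 17.9%, and *Dlx6* in 7.91% and 6.28%. In erythroid-like cells (median 4101 and 3446 UMIs) the share with *Dlx6os1* was 5.38% and 0.840%. *Dlx6os1* shares in projection neuron-like cells, 0.569% and 0.184%, were below that and read as background. The 5.57% of IPC-like cells of replicate 1 was no higher than the erythroid-like share beyond counting error, although their level by CPM was 113 against 25.6. CGE-like cells had *Dlx6os1* in 51 of 51 and 17 of 17 thinned cells and *Lhx6* in 0 of either, which allows a share of up to 5.88% and 17.6% of cells with a UMI.

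**Figure D5:**
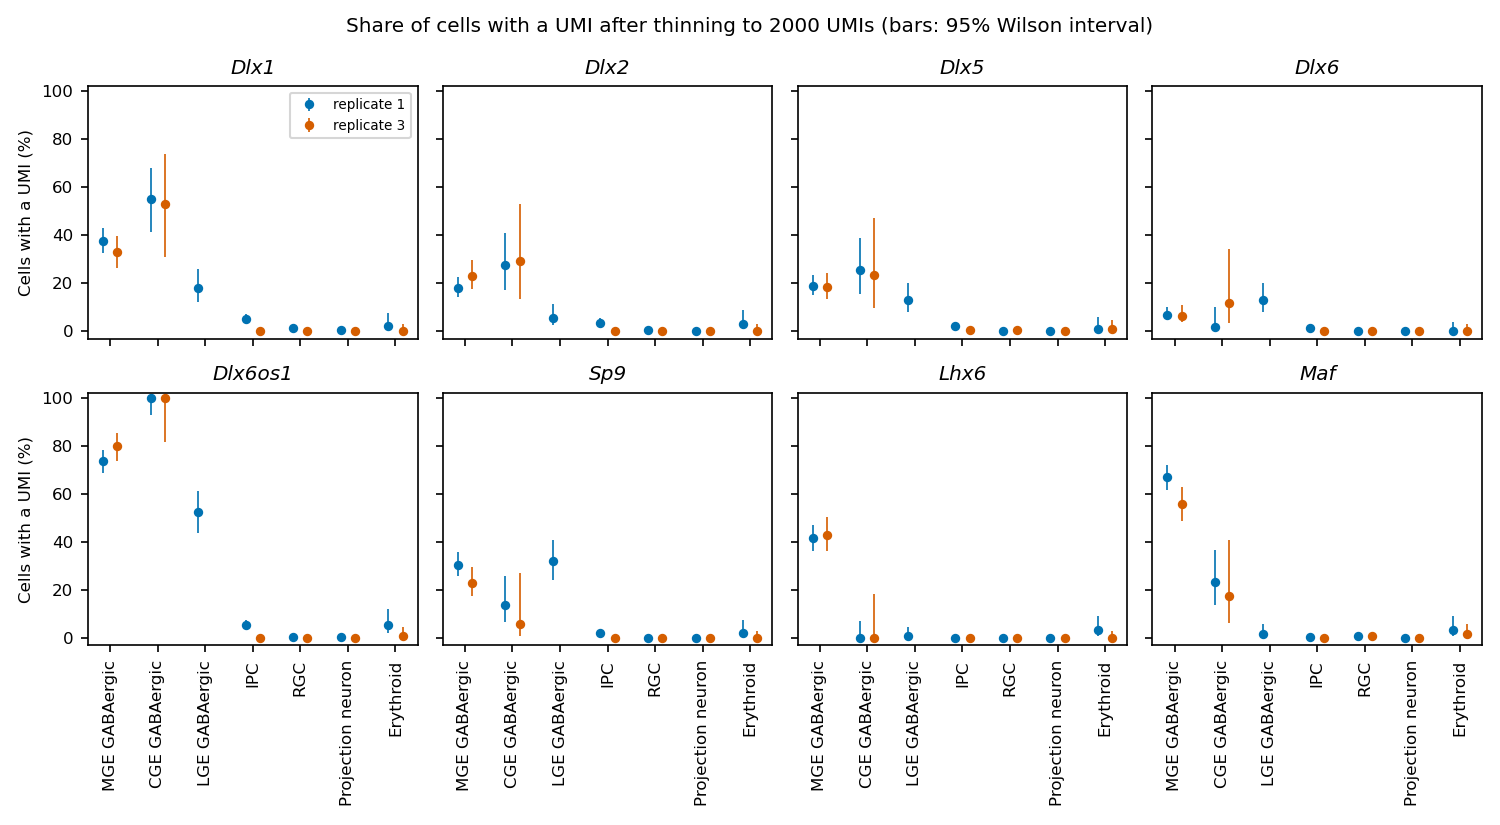
Share of cells with at least 1 UMI of each of the 8 genes (y axis, percent, 95% Wilson intervals that cover counting error only) in 7 groups of cells thinned to 2000 UMIs, with 1 point per replicate. *Dlx6os1* reaches 73.6% and 80.1% of MGE-like cells against 5.57% and 0.284% of IPC-like cells, and *Lhx6* is seen in 41.6% and 43.0% of MGE-like cells and 0.820% of LGE-like cells.

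At this thinned depth, 87.9% and 97.3% of GABAergic-like cells had a UMI of at least 1 of the 8 genes and 44.7% and 52.9% of at least 3. In projection neuron-like cells these shares were 1.89% and 1.07% for 1 gene and 0 for 3. IPC-like cells reached 3 genes in 3.89% of cells of replicate 1 and in 0 of replicate 3. *Dlx2* was seen in 28.5% of GABAergic-like cells with *Dlx1* and in 13.4% of those without it in replicate 1, and in 33.3% and 19.2% in replicate 3. Within MGE-like cells the same values were 19.0% and 17.4% in replicate 1, so the gap narrowed within the subtype in that library, and 31.1% and 19.2% in replicate 3. *Maf* was seen in 66.2% of GABAergic-like cells with *Lhx6* and in 26.3% of those without in replicate 1, against 67.2% and 67.0% within MGE-like cells. In replicate 3 these values were 58.3% and 43.2%, and within MGE-like cells *Maf* was seen in 48 of 80 cells with *Lhx6* and in 52.8% of those without. These are descriptions of cells of 2 libraries and carry no test.

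Other genes of the same network were counted from a list of 28 upstream factors, other *Dlx* genes, postmitotic factors and migration genes, of which 24 were tested. Against projection neuron-like cells 13 rose and 1 fell in edgeR, against IPC-like cells 13 and 2, and against RGC-like cells 15 and 0, with median log2 fold changes of 2.64, 1.48 and 1.87 where all genes had -0.04, -0.02 and 0.02. *Erbb4*, the receptor of neuregulin that guides migrating interneurons, had the largest fold change of the list in all 3, at 8970 and 14642 CPM in GABAergic-like and only at 11.4 and 5.08 CPM in projection neurons (log2 fold change 10.27, edgeR adjusted p = 0.000144). *Npas1*, a basic helix-loop-helix factor of interneurons, rose by 5.60 on the log2 scale (edgeR adjusted p = 8.73e-05) against projection neuron-like cells, and *Ackr3*, a receptor of CXCL12, rose by 6.54 and 6.71 against IPC-like and RGC-like cells (edgeR adjusted p of 7.54e-05 and 2.93e-05). *Npas1* rose against those classes too, by 5.95 and 5.97 (edgeR adjusted p of 4.73e-05 and 1.58e-05), and *Erbb4* by 9.73 and 10.21 (edgeR adjusted p of 5.72e-05 and 2.40e-05). The semaphorin receptor gene *Nrp1* was lower than in projection neuron-like (log2 fold change -2.48, edgeR adjusted p = 0.00149) and IPC-like cells (-1.01, edgeR adjusted p = 0.0306), as was the ephrin receptor gene *Epha4* against IPC-like cells (-1.55, edgeR adjusted p = 0.0184).

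Between MGE-like and the other GABAergic-like cells 5 of the 21 network genes tested rose and 2 fell in edgeR, with a median of 0.42 where all genes had 0.01. *Ackr3* (3.73, edgeR adjusted p = 0.00224) and *Cxcr4*, the other receptor of CXCL12 (2.16, edgeR adjusted p = 0.0210), were among those that rose, and *Sp8*, a relative of *Sp9* (-5.30, edgeR adjusted p = 0.00224), and *Robo1*, a receptor of Slit (-2.30, edgeR adjusted p = 0.0269), fell. *Sp8* had 1 and 0 UMIs in MGE-like cells, where *Sp9* had 319 and 152, and stood at 105 and 103 CPM in CGE-like cells. Of the Maf family, *Mafg*, a small Maf gene, was at 38.7 and 38.5 CPM in GABAergic-like and in projection neuron-like cells at 33.1 and 31.5 CPM, *Mafk* was at 2.55 and 2.36 CPM in GABAergic-like cells, *Maff* had 3 and 0 UMIs and *Nrl* 0 and 1 there. The other *Dlx* genes *Dlx3* and *Dlx4* had 0 UMIs in GABAergic-like cells, and *Dlx1as* stood at 127 and 176 CPM.

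Genes outside the set and the markers were ranked by how closely their log2(CPM + 1) followed each of the 8 over 24 sums of classes and subtypes, among 16533 genes. The noncoding *Gm14204* came first for *Dlx1* (Pearson r = 0.935), *Dlx5* (0.959), *Dlx6* (0.981) and *Sp9* (0.942), *Nrxn3*, a presynaptic adhesion gene, for *Dlx6os1* (0.939), and *Gm38505* for *Dlx2* (0.939), followed by *Dlx1as* (0.937). *Lhx6* had a different list, *Cacng3* (0.932), *Npy2r* (0.931) and *4930488N15Rik* (0.929), and *Maf* the weakest likeness, with *Gm15655* at 0.843, *Bend4* at 0.830 and *Reps2* at 0.799. The sums share 2 libraries and, between a class and its subtypes, the same cells, so these values describe the pattern only.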

How the data were processed

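The authors deposited counts, whole UMI counts per gene and barcode made with Cell Ranger 7.0.0 on build mm10 from 10x 3′ v3.1 libraries, per the labels and the study's methods. Here barcodes outside 1500 to 60000 UMIs, or with 10% or more of UMIs from mitochondrial genes, were dropped (710 and 1387), and 304 (4.93%) and 629 (7.10%) predicted doublets were removed with simulated doublets at 0.8% per 1000 barcodes. Cells were clustered with scanpy 1.11.5 (2000 variable genes, 30 components, 15 neighbours, Leiden resolution 1.0), leaving the 8 genes and the network list out. Clusters were named from 110 markers of 16 classes. A class needed at least 3 markers seen in 10% or more of a cluster's cells. Each also had to lie above 0.5 of its range over clusters. The GABAergic name was taken before others where it passed. A cluster kept no name if another class led its top 10 genes, or if it was shallow with no marker among them. GABAergic-like cells were clustered again. The 8 genes and all lists were chosen with earlier results of these data known. UMIs were summed per class and library and tested with edgeR 4.0.16 (quasi-likelihood, TMM, filterByExpr, Benjamini-Hochberg, threshold 0.05), DESeq2 1.42.0 being an alternative, both in R 4.3.3. The test was without a replicate block. Same-numbered sums come from 1 library, which the labels give, and their deviations correlated at 0.0767 to 0.281 between classes and at 0.0882 between MGE-like and other GABAergic-like cells. The genes named were the 8, up to 3 of the network list in each direction with the largest called fold change, the Maf family by level, and the 3 genes most like each of the 8. Intervals (95%) and the limit of 3 counts for 0 UMIs cover counting error only. On simulated counts for GABAergic-like against projection neuron-like cells (14519 genes), 57.1%, 79.7% and 90.5% of genes changed by 1, 2 and 4 on the log2 scale were recovered, and for MGE-like against other GABAergic-like cells (9547 genes) 19.7%, 95.1% and 100%. False calls were 12 of 156 and 16 of 148, a share above the threshold of 0.05 in both. Far fewer genes were called there than in these data, so scaling under many changes was not checked. Median depth was 9802 and 9754 UMIs per barcode. Alternatives varied the filters, doublets, clusters, scaling, test, prior count and block, and each replicate was left out. Values of some genes that these rules and marker lists name are not reported here, though the counts include them.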

Additional observations from a re-analysis of the deposited data

How the results depend on the processing

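Against projection neuron-like, IPC-like and RGC-like cells, edgeR called 5464, 8105 and 9467 genes, and the 14 alternatives of each stayed within 1.5 times of these counts. The calls of the 8 genes held in all of them except those of *Dlx1* (3.54) and *Dlx2* (3.69 on the log2 scale) against IPC-like cells with DESeq2, where 6 remained past the threshold. The 14 include the setting without glutamatergic-class cells holding 2 or more *Gad1*, *Gad2* and *Slc32a1* UMIs. That setting is no check on the *Dlx* calls. MGE-like against other GABAergic-like cells depended more on the processing: 380 genes were called in edgeR, 208 with DESeq2, 148 with doublets kept, 169 with the stricter filter on cells and 1024 without the filter on low counts. Of the 8 genes 2 passed there, 1 (*Lhx6*) with DESeq2, and 0 without a filter on cells or with the stricter one, where the log2 fold changes were 3.87 and 3.80 for *Lhx6* and 2.69 and 2.88 for *Maf*. The cause was not tested.

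With the replicate number as a block, since the pairing comes from the library itself, 5857, 8284, 9648 and 535 genes were called in the 4 comparisons, and no call of the 8 genes changed. Leaving out a replicate left no residual degrees of freedom and gave values with no test. Against IPC-like cells the log2 fold change of *Dlx1* was 2.55 without replicate 3 and 7.66 without replicate 1, that of *Dlx6os1* 3.13 and 10.02, and that of *Lhx6* 6.68 to 8.66. Between MGE-like and other GABAergic-like cells it ran from 2.95 to 4.75 for *Lhx6* and from 1.82 to 4.06 for *Maf*. Values are limited by depth for *Dlx6* (160 and 49 UMIs in GABAergic-like cells) and by 17 CGE-like cells in replicate 3.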
